A study of Drosophila melanogaster with 12 samples.

Results

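Antimicrobial peptides are the short, secreted effector proteins with which a fly kills bacteria and fungi. Described here are 10 of their genes, namely Drs (drosomycin), Mtk (metchnikowin), the attacins AttA, AttB, AttC and AttD, the diptericins DptA and DptB, Dro (drosocin) and CecA1 (cecropin A1). They were chosen by name, by a rule that uses no measured value, although earlier results of these data were known, and make up 10 of the 14405 genes in the table, of which 12759 were protein-coding. RNA-Seq and Ribo-Seq, in which the stretches of mRNA covered by ribosomes (footprints) are sequenced after nuclease digestion, were performed on whole female Drosophila melanogaster. The flies were Polr3D EY/+, heterozygous for the P-element insertion EY22749 (dC53EY22749 in the labels) in a subunit gene of RNA polymerase (Pol) III, or wild-type flies labelled White Dahomey, an outbred stock free of Wolbachia, carrying an eye-colour mutation for tracking, into which the insertion had been backcrossed. The comparison asks whether reduced Pol III changes which mRNAs ribosomes occupy. Each genotype was sampled in 3 replicates per assay, and 11 libraries had a column in the table, all but RNA-Seq of wild-type replicate 3. The labels name no infection, and the age of these flies is not given in the sources used here. Nothing in the labels says whether replicates came from separate cultures of flies, so the p-values measure the spread between these samples, which may be technical.

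In the fly, bacteria and fungi are sensed by circulating and membrane-bound recognition proteins that feed the Imd and Toll pathways, each of which ends in a transcription factor of the NF-kappaB family. Imd signalling, through Relish, is the main inducer of the diptericins, attacins, cecropins and drosocin, whereas Toll signalling, through Dif and Dorsal, is the main inducer of drosomycin, of metchnikowin in part, and of the Bomanin peptides. The fat body, the counterpart of liver and adipose tissue, makes most of the peptides after systemic infection, and epithelia such as gut and the female reproductive tract make some of them locally.

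RNA-Seq libraries held 24299908 to 28718489 protein-coding counts and Ribo-Seq libraries 1127599 to 3192166, where rRNA took 96.1 to 97.7% of the Ribo-Seq counts. Levels are counts scaled to a total of 1000000 protein-coding counts per library (CPM), so that 3 counts, taken as the floor of detection, equal 0.104 to 0.123 CPM in RNA-Seq and 0.940 to 2.66 CPM in Ribo-Seq. Polr3D itself had 30.2 ± 0.528 CPM of RNA in Polr3D EY/+ flies (SD, n = 3) and 57.7 ± 8.42 CPM in wild-type flies (n = 2), and was called lower in the mutants (log2 change -0.92, SE 0.25, DESeq2 adjusted p = 0.0294). Of the fat body markers 4 of 5 were in the table and all 4 had counts in every library, and so had all 8 blood cell markers. The 6 male accessory gland and testis markers summed to 518 counts in RNA-Seq of Polr3D EY/+ replicate 1 and to 0 to 4 counts in the other RNA-Seq libraries, although every library was labelled female. That sum was 21.3 CPM. In the shallower Ribo-Seq libraries they reached 24.4 CPM in Polr3D EY/+ replicate 3 and 51.4 CPM in wild-type replicate 2, both used in the fit. In whole flies, fewer cells of a type and less RNA per cell cannot be told apart.

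Drosomycin dominated the group in both genotypes and both assays. Drs, an antifungal peptide with the fold of plant defensins, encoded on 3L at 3369556 to 3369942, had 109, 142 and 132 CPM of RNA in Polr3D EY/+ replicates 1, 2 and 3, against 174 and 129 CPM in wild-type replicates 1 and 2. Its footprints were at 508, 469 and 441 CPM in the mutants and at 515, 464 and 466 CPM in the 3 wild-type libraries. The genotypes overlapped in both assays, and the footprint values spanned a narrow range. The fitted log2 change of Polr3D EY/+ over wild-type was -0.24 in RNA (95% interval -0.61 to 0.14), -0.02 in footprints (-0.41 to 0.36) and 0.21 in translation efficiency, the footprint change relative to the RNA change (-0.30 to 0.73). The DESeq2 adjusted p for Drs was 1.0 in all 3 contrasts.

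Drs accounted for 80.1 to 86.8% of the RNA counts of the 10 genes, library by library, and for 89.0 to 95.3% of their footprint counts. The lowest footprint share was 89.0% in Polr3D EY/+ replicate 3 (95% Wilson interval 86.2 to 91.2%) and the highest was 95.3% in wild-type replicate 1 (93.6 to 96.6%), where the other 9 genes had only 38 counts in all. Such intervals cover counting error only. Among 12759 protein-coding genes Drs took place 1273 by mean RNA CPM and place 354 by mean footprint CPM, whereas AttC, the highest of the other 9 genes by RNA, took places 7746 and 6974. Their summed level, without Drs, was 16.5, 35.4 and 21.2 CPM of RNA in Polr3D EY/+ flies and 39.5 and 24.2 CPM in wild-type flies.

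**Figure D1:**
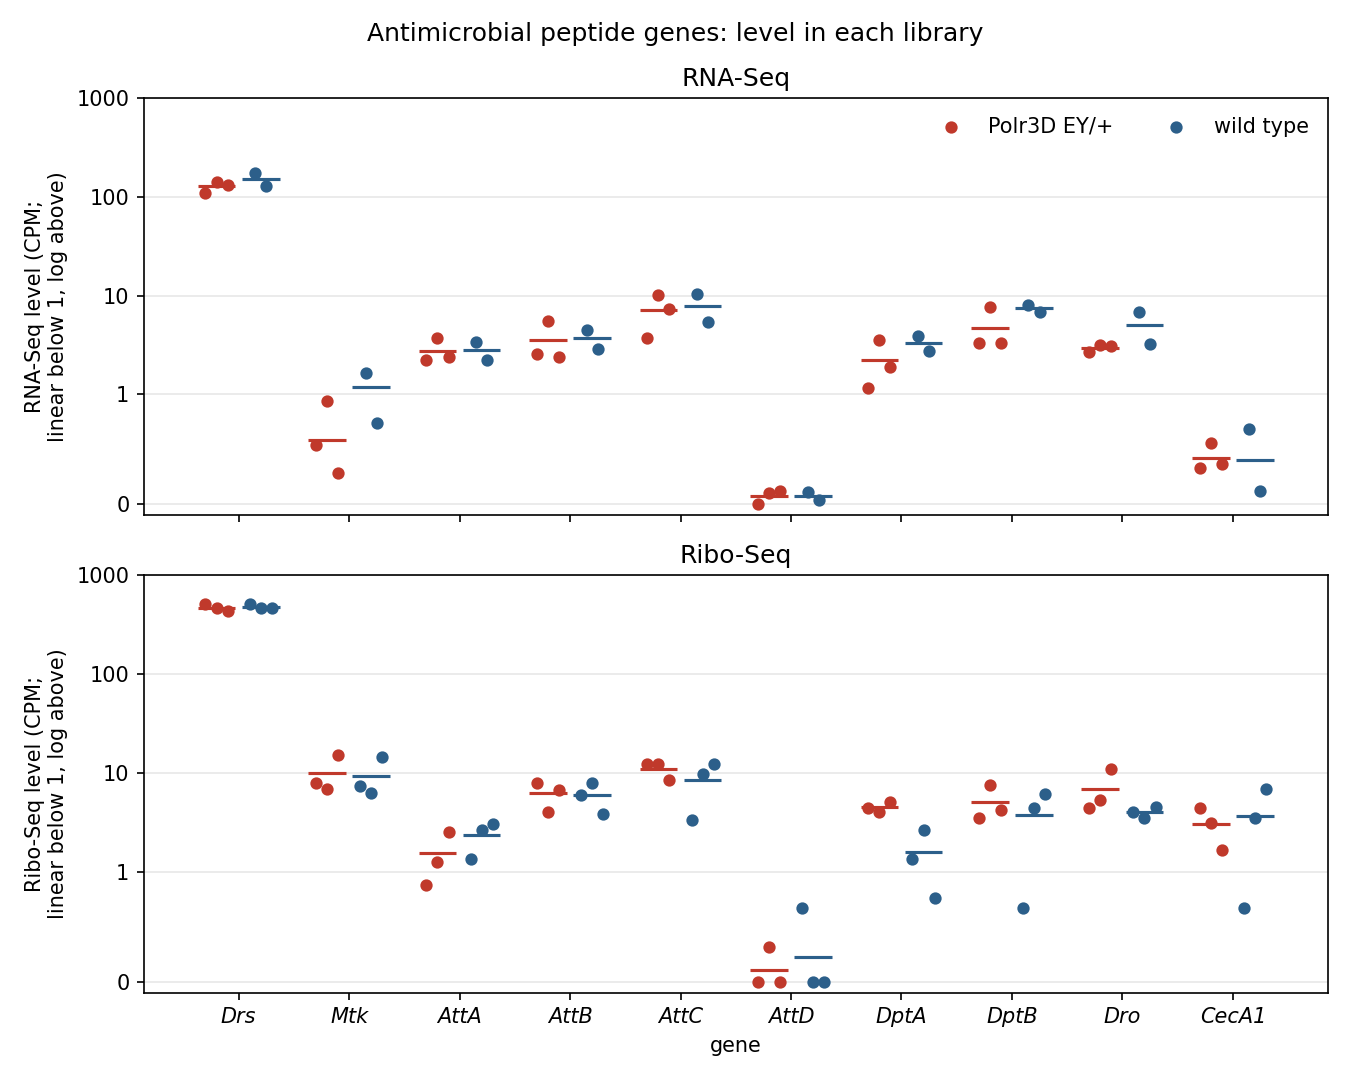
Level of each gene in each library, in CPM on an axis that is linear below 1 and logarithmic above it, with RNA-Seq in the upper and Ribo-Seq in the lower panel. Points are single libraries in order of replicate number (Polr3D EY/+ red, wild-type blue) and lines are group means. Drs lies above 100 CPM in every library, and no other gene exceeds 16 CPM in either assay.

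Per length, the levels spread over more than 3 orders of magnitude. RNA levels, per kilobase of transcript, had the order Drs (354 CPM per kb), DptB (13.0), Dro (10.7), AttC (8.23), DptA (5.36), AttB (4.56), AttA (3.51), Mtk (3.09), CecA1 (1.21) and AttD (0.101), as means of 5 libraries. Only Drs and DptB, and CecA1 and AttD, were neighbours whose ranges over the libraries did not overlap, so the order from DptB to CecA1 was not resolved step by step. Footprint levels, per kilobase of coding sequence over 6 libraries, put Mtk at the second place with 62.0 CPM per kb after 2272 CPM per kb for Drs. Dro (28.5), CecA1 (17.9), AttC (13.6), DptB (12.2), DptA (9.57) and AttB (9.30) followed with ranges that each overlapped the next, and AttA (2.94) and AttD (0.301) each lay below the range of the gene before.

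Mtk and CecA1 therefore ranked low by RNA and higher by footprints. The ratio of these per-length levels, footprints over RNA, was 20.03 for Mtk, 14.8 for CecA1 and 6.41 for Drs, against a median of 1.19 over 8936 protein-coding genes with at least 1 CPM in each assay. It was lowest for AttA (0.838) and DptB (0.945). The CecA1 and AttA ratios depend on how the counting model divided reads with near-identical neighbours. CecA1 received all 31 footprint counts it could share with CecA2 but 75.3% of their 73 RNA counts. AttA received 24.3% of the footprint counts and 43.4% of the RNA counts it could share with AttB. Mtk, CecA1 and AttD were under 1 CPM in an assay and so are not among the 8936 genes, and of the other 7 peptide genes 5 lay above the median of 1.19. Short transcripts in general had high ratios: the median was 3.03 for the 254 genes with transcripts under 500 nt and 1.36 for the 1456 genes of 500 nt or more but under 1000 nt. The transcripts of the 10 genes run from 268 nt (Mtk) to 900 nt (AttC), and per-length levels carry no correction for fragment size. The part of length in the high ratios was not tested.

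**Figure D2:**
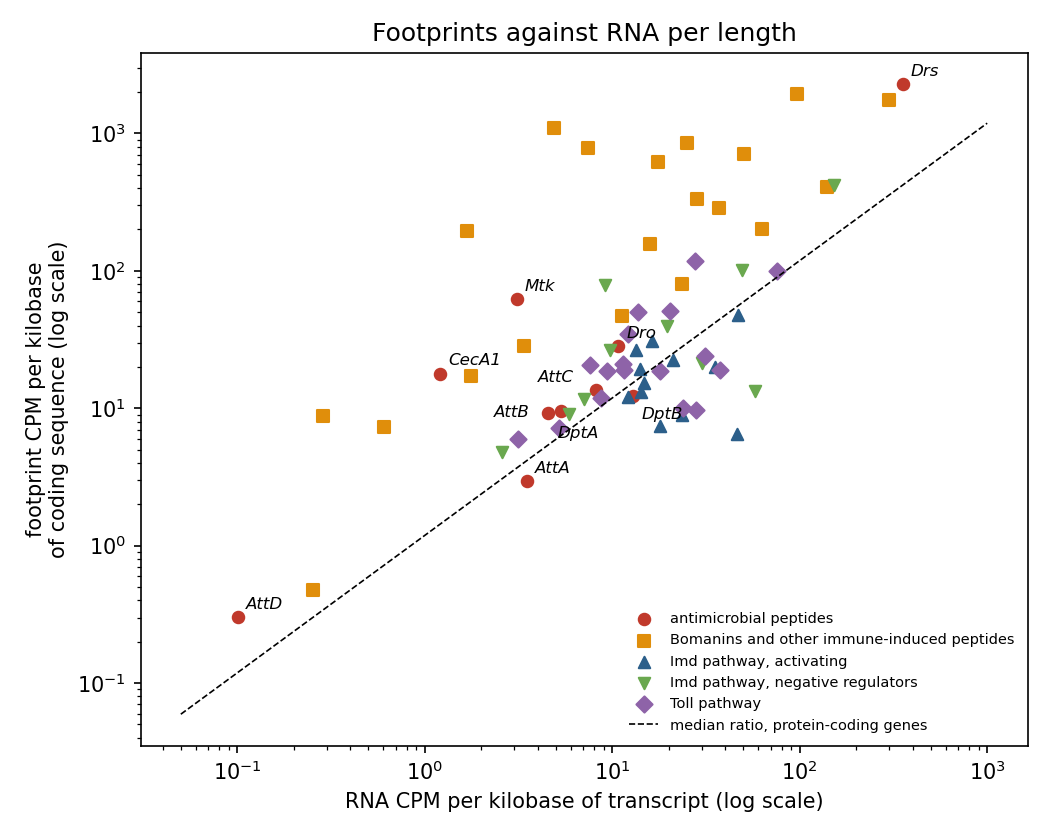
Footprint CPM per kilobase of coding sequence against RNA CPM per kilobase of transcript, both on log axes, as means over all libraries. Each point is 1 of 69 immune genes, 3 further genes with no footprint count are not drawn, and the dashed line marks the median ratio of 1.19; Drs is the highest of the named points, and Mtk and CecA1 stand far above the line.

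In the mutants none of the 10 genes was called changed in either assay or in translation efficiency, at an adjusted p under 0.1 in a DESeq2 model with terms for replicate number, assay, genotype and the interaction of genotype and assay, fitted to 10 libraries without wild-type replicate 3. Over all genes tested, 1.02% were called in RNA (135 of 13253), 0.362% in footprints (52 of 14368) and 0.303% in translation efficiency (41 of 13533), shares that amount to less than 1 gene in 10. All 10 genes received an adjusted p in each contrast. At an unadjusted p under 0.05 the counts were 0, 0 and 1 of 10 by DESeq2 and 1, 0 and 3 by edgeR's quasi-likelihood test, whose lowest adjusted p for these genes was 1.0. With a filter of at least 10 mean counts in each assay, only AttC, Drs and Mtk (3 of 10) remained to be tested. The median log2 change of the 10 genes was -0.24 in RNA (0.00 over all genes), 0.61 in footprints (-0.06) and 0.80 in translation efficiency (-0.03). The footprint median rested on the omission of wild-type replicate 3: it was 0.07 with all 11 libraries and 0.10 with Ribo-Seq fitted alone. Omitting 1 replicate at a time moved the medians from -1.18 to 0.31 in RNA, from 0.29 to 0.83 in footprints and from 0.04 to 1.94 in translation efficiency, and in RNA and translation efficiency the extremes came without wild-type replicate 1 and without wild-type replicate 2. The intervals of the single genes were wide, as shown in the plot of fitted changes.

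**Figure D3:**
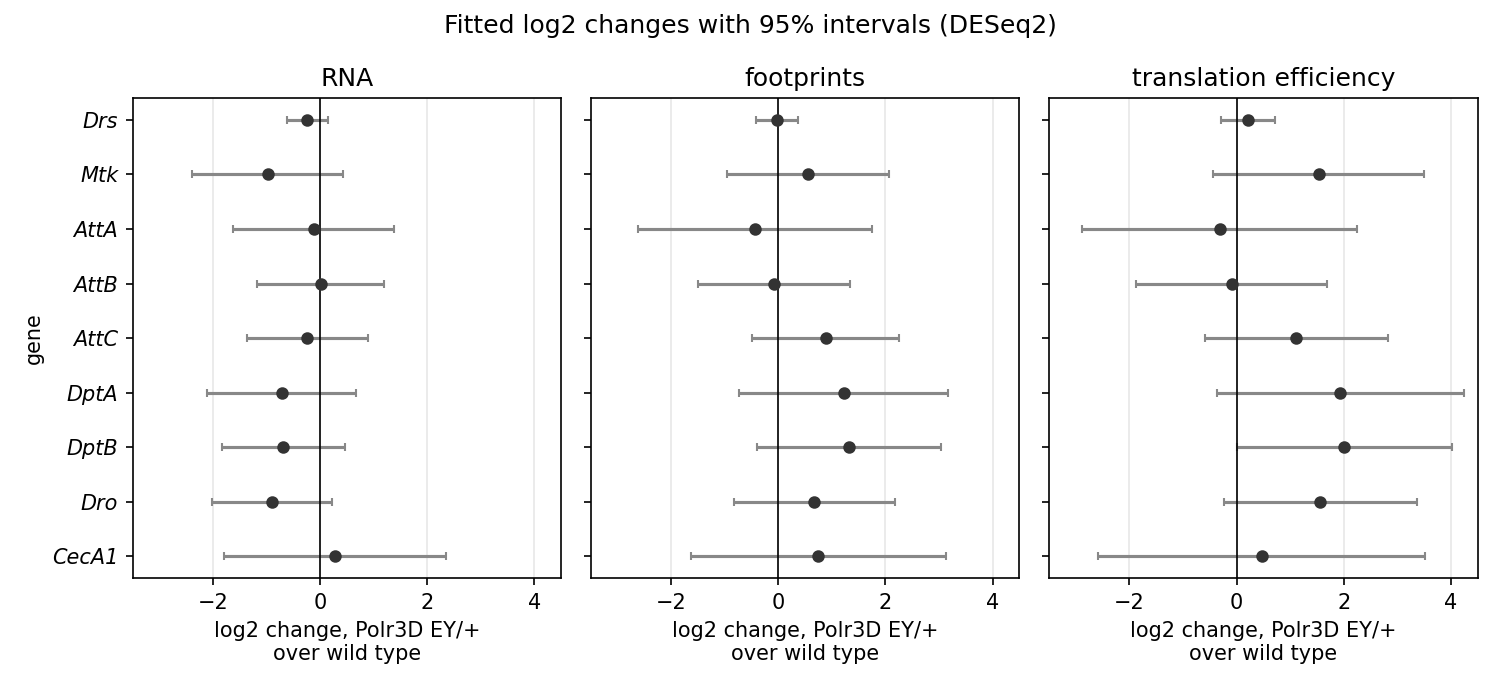
Fitted log2 change of Polr3D EY/+ over wild-type for 9 genes in RNA, footprints and translation efficiency (DESeq2, points) with 95% intervals (bars). AttD is not drawn because it had 3 or fewer counts in each library. Every interval includes 0 except that of DptB in translation efficiency, whose lower end is 0.01.

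Diptericins are small glycine-rich peptides directed against Gram-negative bacteria, encoded by a tandem pair of genes on chromosome arm 2R (DptA at 18865765 to 18866260 and DptB at 18867391 to 18867895, BDGP6). DptA had 1.15, 3.59 and 1.89 CPM of RNA in Polr3D EY/+ flies and 3.88 and 2.78 CPM in wild-type flies. Its footprints were at 4.39, 4.07 and 5.05 CPM in the mutants, against 1.34, 2.66 and 0.763 CPM in wild-type flies. All 3 mutant libraries thus lay above all 3 wild-type libraries in footprints, while RNA overlapped. These values rest on 5, 13 and 6 counts in Polr3D EY/+ flies and 2, 3 and 1 counts in wild-type flies. Pooled, 24 counts gave 4.35 CPM (exact Poisson 95% interval 2.79 to 6.47, counting error only) in the mutants and 6 counts gave 1.53 CPM (0.560 to 3.32) in wild-type flies. The fitted changes of DptA were -0.72 in RNA (SE 0.71), 1.22 in footprints (SE 0.99) and 1.94 in translation efficiency (SE 1.18), with a DESeq2 adjusted p of 1.0 in each. The footprint change of DptA was 1.55 with all 11 libraries, and its translation efficiency change was 1.20 without wild-type replicate 1.

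DptB had 3.29, 7.59 and 3.30 CPM of RNA in Polr3D EY/+ flies, against 8.11 and 6.78 CPM in wild-type flies, so mutant replicates 1 and 3 were low and replicate 2 lay between the wild-type values. Its footprints were at 3.51, 7.52 and 4.20 CPM in the mutants and at 0.668, 4.43 and 6.11 CPM in wild-type flies, with overlap. The wild-type replicate 1 value is a single count. DptB was the gene counted above with an unadjusted p under 0.05 in translation efficiency, where its log2 change was 2.02 (SE 1.02) and its DESeq2 adjusted p was 1.0. That change was 0.76 without wild-type replicate 1 and 3.75 without wild-type replicate 2. The footprint change of DptB was 1.32 (SE 0.88), and 0.52 with all 11 libraries. The diptericins share part of their sequence, and the counting model divides reads that match both.

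Drosocin, a proline-rich peptide that enters bacteria and blocks their ribosomes, was the only one of the 10 genes whose RNA did not overlap between genotypes. Dro, on 2R at 14745961 to 14746714, had 2.67, 3.13 and 3.06 CPM of RNA in Polr3D EY/+ flies and 6.86 and 3.27 CPM in wild-type flies. The mutants lay close together, and wild-type replicate 2 was above the highest of them by less than the range of the mutants. Among all protein-coding genes 11.6% did not overlap in RNA in either direction. Footprints of Dro were at 4.39, 5.33 and 10.9 CPM in the mutants, against 4.01, 3.55 and 4.58 CPM in wild-type flies, which overlapped. The fitted changes were -0.90 in RNA (SE 0.57), 0.67 in footprints (SE 0.77) and 1.56 in translation efficiency (SE 0.92), none of them called. The RNA change of Dro ran from -1.53 without wild-type replicate 2 to -0.19 without wild-type replicate 1, and its footprint change from 0.26 without Polr3D EY/+ replicate 2 to 1.26 without Polr3D EY/+ replicate 1.

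Attacins are larger, glycine-rich peptides that act on the outer membrane of Gram-negative bacteria. AttA and AttB are near-identical neighbours of Dro on 2R (14747362 to 14748215 and 14749223 to 14750165), and reads common to both were divided by the counting model, so their separate values are uncertain. Summed over the libraries AttA held 43.4% of the pair's 846 RNA counts and 24.3% of its 70 footprint counts. AttA had 2.22, 3.69 and 2.38 CPM of RNA in Polr3D EY/+ flies, against 3.37 and 2.21 CPM in wild-type flies. AttB had 2.59, 5.57 and 2.42 CPM in Polr3D EY/+ flies and 4.52 and 2.86 CPM in wild-type flies. In both genes mutant replicate 2 was the highest library and wild-type replicate 1 came next. Footprints of AttB were at 7.90, 4.07 and 6.73 CPM in the mutants and 6.02, 7.98 and 3.82 CPM in wild-type flies, and those of AttA never exceeded 4 counts in a library.

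AttC, on 2R at 13393705 to 13394667, was the most abundant attacin. It had 3.74, 10.2 and 7.37 CPM of RNA in Polr3D EY/+ flies, against 10.3 and 5.44 CPM in wild-type flies. Footprints were at 12.3, 12.2 and 8.41 CPM in the mutants and at 3.34, 9.76 and 12.2 CPM in wild-type flies. Both assays overlapped, with fitted changes of -0.24 in RNA (SE 0.58), 0.88 in footprints (SE 0.70) and 1.12 in translation efficiency (SE 0.87). With all 11 libraries its footprint change was 0.47, and its translation efficiency ran from -0.13 without wild-type replicate 1 to 2.34 without wild-type replicate 2. AttD, on 3R at 17625268 to 17626086 and apart from the other attacins, was at or under the floor, with 0, 3 and 3 RNA counts in Polr3D EY/+ flies and 3 and 1 in wild-type flies, and at most 1 footprint count in any library. Its fitted changes, -0.21 in RNA (SE 3.07), -0.95 in footprints (SE 3.42) and -0.74 in translation efficiency (SE 4.38), rest on these counts and are not interpreted. They do enter the medians of the 10 genes and of the attacins.

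Mtk, a proline-rich peptide with antifungal activity encoded on 2R at 15408846 to 15409113, had 0.535, 0.940 and 0.282 CPM of RNA in Polr3D EY/+ flies, against 1.65 and 0.736 CPM in wild-type flies. Its footprints were at 7.90, 6.89 and 15.1 CPM in the mutants and 7.35, 6.21 and 14.5 CPM in wild-type flies. Replicate 3 was high in both genotypes, and otherwise the libraries differed little. The fitted changes were -0.98 in RNA (SE 0.72), 0.56 in footprints (SE 0.77) and 1.54 in translation efficiency (SE 1.01), none called. With all 11 libraries the footprint change of Mtk was 0.09. Omitting 1 replicate at a time, it ran from 0.14 without Polr3D EY/+ replicate 3 to 1.26 without Polr3D EY/+ replicate 1, and the RNA change ran from -1.89 without Polr3D EY/+ replicate 2 to -0.13 without wild-type replicate 1. CecA1, one of the cecropins, helical peptides that open bacterial membranes, lies on 3R at 30210874 to 30211273 and had 0.329, 0.557 and 0.363 CPM of RNA in Polr3D EY/+ flies and 0.682 and 0.123 CPM in wild-type flies. Its footprints ran from 1.68 to 4.39 CPM in the mutants and from 0.668 to 6.87 CPM in wild-type flies, a range that enclosed the mutant values. Its near-identical neighbour CecA2 held 18 RNA counts against 55 for CecA1 and 0 footprint counts against 31, an unequal division that the counting model can produce.

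The footprint-to-RNA ratio within a replicate number did not overlap between genotypes for DptA, DptB and Dro, all higher in the mutants. Whether RNA-Seq and Ribo-Seq libraries of the same number came from the same flies is not given in the sources used here. Male markers differed between them, with 21.3 CPM of RNA and 0 of footprints in Polr3D EY/+ replicate 1. In wild-type replicate 2 they had 0.123 CPM of RNA and 51.4 CPM of footprints. On log2 of CPM with 1 added to each value, it was 1.32, 0.15 and 1.06 for DptA in Polr3D EY/+ replicates 1, 2 and 3, against -1.06 and -0.05 in wild-type replicates 1 and 2. For DptB it was 0.07, -0.01 and 0.27 in the mutants and -2.45 and -0.52 in wild-type flies. For Dro it was 0.55, 0.61 and 1.55 in the mutants and -0.65 and 0.09 in wild-type flies. That is 3 of 10 genes, beside 16.3% of all 12759 protein-coding genes that did not overlap in the ratio. Of these 12759 genes, 8936 had a mean of at least 1 CPM in each assay. Short transcripts leaned the same way in replicate 1, where the ratio was higher in the mutant for 188 of 231 genes under 500 nt. In replicate 2 it was higher for 78 of them. Of the 10 peptide genes it was higher in 9 and 4. By footprint CPM alone 1 of 10 genes, DptA, did not overlap, beside 9.37% of all genes. Wild-type replicate 1 was the lowest library for the ratio in each of these 3 genes.

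**Figure D4:**
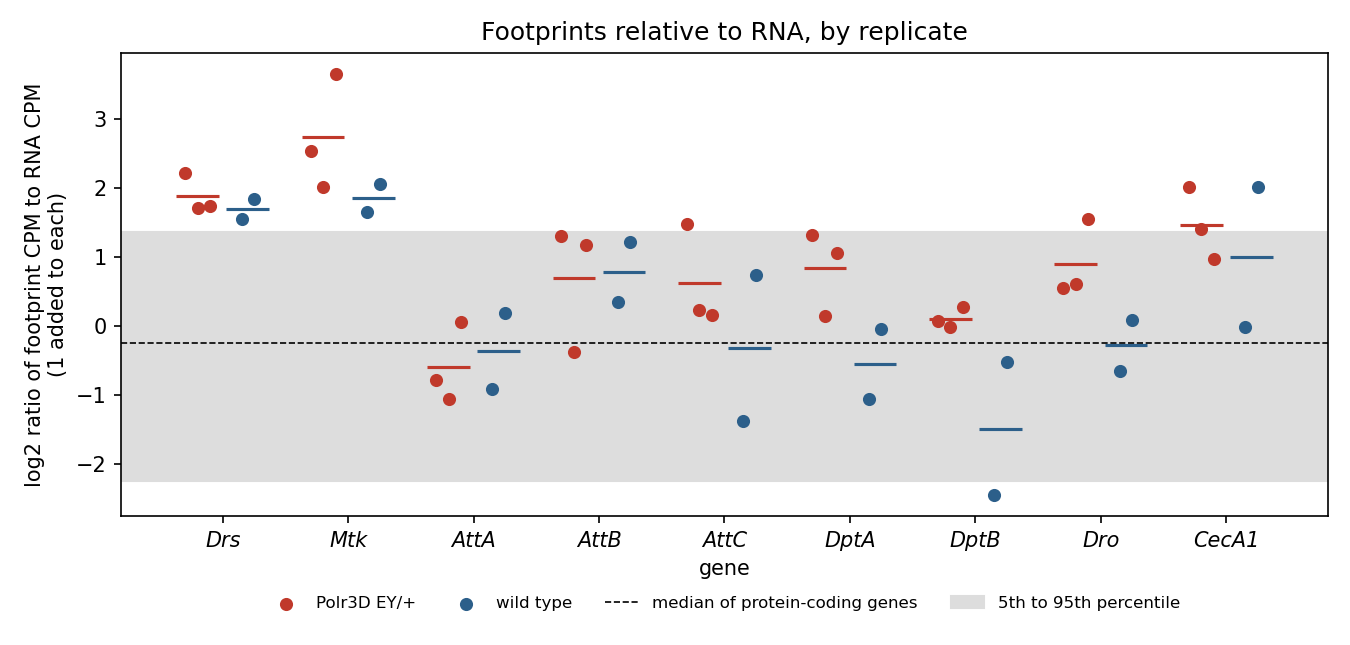
Log2 ratio of footprint CPM to RNA CPM, with 1 added to each, by replicate number for 9 genes (Polr3D EY/+ red, 3 replicates; wild-type blue, 2 replicates), with lines at group means. The dashed line and grey band give the median (-0.25) and the 5th to 95th percentile of 8936 protein-coding genes (-2.24 to 1.37); only DptA, DptB and Dro have every mutant point above every wild-type point.

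The RNA values of most of these genes divided the libraries across the genotypes. Wild-type replicate 1 was the highest RNA-Seq library for 7 of the 10 genes, and Polr3D EY/+ replicate 1 the lowest for 6. In replicate 1 RNA was lower in the mutant for 10 of 10 genes (median log2 difference -0.73), and in replicate 2 it was higher in the mutant for 9 of 10 (median 0.22), with Dro the exception. Among 12759 protein-coding genes 5114 were lower in replicate 1 and 5358 higher in replicate 2, and 25.7% were both. Polr3D EY/+ replicate 2 and wild-type replicate 1 both lay above the other 3 RNA-Seq libraries in 8 of 10 genes, beside 18.4% of all protein-coding genes. Without wild-type replicate 1 the fitted RNA change was 0.53 for AttA, 0.74 for AttC, 0.02 for DptA, 0.12 for DptB and 0.08 for Drs, each of opposite sign to the value from 10 libraries. Omitting RNA-Seq of Polr3D EY/+ replicate 1 alone, which holds most of the RNA-Seq counts of male genes, also turned the sign for AttA (0.01), AttC (0.42) and Drs (0.01).

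Transcript length went with the same libraries. Among 231 protein-coding genes with transcripts under 500 nt and at least 2 CPM of RNA, the median level relative to the median of the RNA-Seq libraries was 0.11 on the log2 scale in Polr3D EY/+ replicate 2 and 0.38 in wild-type replicate 1, and -0.06 to -0.02 in the other 3. Among 2925 genes with transcripts of 2500 nt or more it was -0.16 in Polr3D EY/+ replicate 2 and -0.13 in wild-type replicate 1. In 67.5% of the genes under 500 nt both these libraries lay above the other 3, as against 7.66% of the genes of 2500 nt or more. In 79.2% of the genes under 500 nt the mutant was lower in replicate 1 and higher in replicate 2, as in 9 of the 10 peptide genes. The share was 66.8% of the genes of 500 nt or more but under 1000 nt, the class of the 4 attacins. Median fitted changes of the genes under 500 nt were -0.19 for RNA, 0.10 for footprints and 0.29 for translation efficiency, whereas those of the 6 peptide genes in that class were -0.71, 0.71 and 1.55. With all 11 libraries the footprint median of these 6 genes was 0.31, and without wild-type replicate 1 their RNA median was 0.05. For the 4 attacins, with transcripts of 742 to 900 nt, the medians were -0.16, -0.26 and -0.20, beside 0.00, 0.07 and 0.08 over 1409 genes of 500 nt or more but under 1000 nt. The peptide genes are mostly less abundant than the genes of these classes, and the part of length in their changes was not tested.

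**Figure D5:**
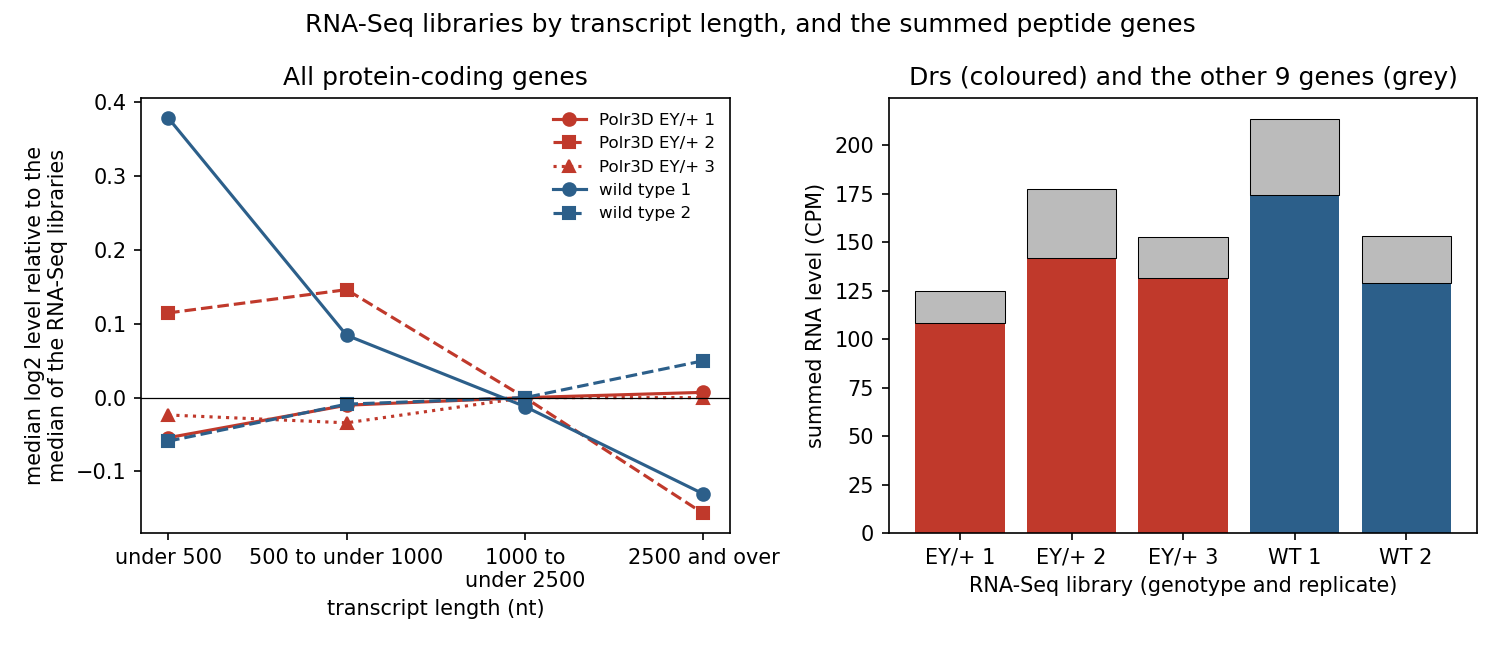
Left, median log2 level in each RNA-Seq library relative to the median of the 5 libraries, by transcript length class, for protein-coding genes with at least 2 CPM of RNA (Polr3D EY/+ red, wild-type blue). Right, summed RNA CPM of the 10 peptide genes per library as bars from 0, with Drs coloured and the other 9 genes in grey; Polr3D EY/+ replicate 2 and wild-type replicate 1 are high for short transcripts and have the largest sums, 177 and 214 CPM.

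Genes that most resembled the summed level of the 10 genes over the 11 libraries, by Pearson correlation of log2(CPM + 1) centred within each assay, were CG14125 (r = 0.91), Npc2a (0.87), Mfe2 (0.86), mRpS18C (0.86), CG10570 (0.86), CG17272 (0.86), CG43134 (0.84) and CG9067 (0.83), out of 7639 candidates. Within RNA-Seq alone r was 0.88 to 0.98. Within Ribo-Seq alone it was, in the same order, 0.68, 0.92, -0.55, 0.61, 0.37, 0.12, 0.27 and 0.41. Npc2a encodes a sterol-binding protein and Mfe2 an enzyme of peroxisomal fatty acid oxidation. The sum is mostly Drs (r = 0.98), and the correlation of the other 9 genes with it was 0.17 to 0.53. All points share library depth and the library split described above, and these values are a description.

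Other peptides of the defence were likewise mostly uncalled. Of 12 further antimicrobial peptide genes 10 were in the table, among which Def (defensin) had 4.78 ± 1.27 CPM of RNA in Polr3D EY/+ flies (SD, n = 3) and 6.11 ± 0.900 CPM in wild-type flies (n = 2). Drsl5, a relative of drosomycin, had 3.23 ± 0.150 CPM in Polr3D EY/+ flies (n = 3) and 4.93 ± 1.66 CPM in wild-type flies (n = 2). Neither was called, and the single call of that list was Anp (andropin), higher in mutant RNA. Its 26 RNA counts came only from Polr3D EY/+ replicate 1, the RNA-Seq library with 518 counts of male markers. None of the 22 Bomanins and other immune-induced peptides was called in any contrast, and their median changes were -0.22 for RNA, 0.06 for footprints and 0.27 for translation efficiency. IM33, the most abundant of them by RNA, had 102 ± 11.2 CPM in the mutants (n = 3) and 114.9 ± 45.3 CPM in wild-type flies (n = 2), with the highest value in wild-type replicate 1, as for Drs. BomBc2 had 70.6 ± 10.2 CPM in the mutants (n = 3) and 71.5 ± 18.9 CPM in wild-type flies (n = 2). All 20 peptides of this list with counts in both assays had a footprint-to-RNA ratio per length above the median of 1.19, with a median of 10.8. Protein-coding genes with transcripts under 500 nt had a median of 3.03, and the part of length in the peptides' ratios was not tested.

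The pathway genes that control these peptides did not pass the test either. None of the 12 activating Imd genes, the 11 negative regulators of Imd or the 17 Toll pathway genes was called in RNA, footprints or translation efficiency by DESeq2. At an unadjusted p under 0.05 the counts were 0 in RNA for all 3 lists, and 1 negative regulator, PGRP-SC1b, in both footprints and translation efficiency. Its log2 changes were -0.64 in RNA (SE 0.34), 1.02 in footprints (SE 0.38) and 1.65 in translation efficiency (SE 0.48). The DESeq2 adjusted p was 0.84 in footprints and 0.16 in translation efficiency. Median RNA changes of the 3 lists were -0.02, 0.07 and -0.06. The most abundant activating genes by RNA, Diap2, a ubiquitin ligase, and Tab2, a partner of the kinase Tak1, had RNA log2 changes of 0.08 (SE 0.20) and -0.02 (SE 0.24). Among the negative regulators cad, a homeodomain protein that restrains peptide genes in the gut, had 0.00 (SE 0.22) and scny, a deubiquitinase, 0.09 (SE 0.18) on the same scale. In the Toll pathway the RNA log2 change was 0.03 (SE 0.15) for the receptor gene Tl and -0.10 (SE 0.20) for cact, which holds Dif and Dorsal in the cytoplasm. Most of these transcripts exceed 1000 nt. Summed levels of the 17 Toll genes were 826, 745 and 828 CPM of RNA in Polr3D EY/+ flies and 747 and 858 CPM in wild-type flies, with the lowest values in the same libraries in which the peptide genes were highest.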

How the data were processed

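Counts were deposited by the authors as 1 table of fragments per transcript, estimated and not normalised: reads had been trimmed with Cutadapt and quantified with Salmon against a decoy-aware BDGP6 transcriptome that included noncoding RNAs. Of 28367 features 28345 were matched to the Ensembl annotation, release 115, 22 were not, and counts were summed per gene (14405 genes). CPM were scaled to the protein-coding total of each library. DESeq2 1.42.0 (R 4.3.3) was fitted with the design of the study's methods, which take replicate number as a batch, to 10 libraries with 4 residual degrees of freedom. Wild-type replicate 3 was left out, so replicate 3 of the mutants has no wild-type partner and enters through its own footprint-to-RNA difference. Through the shared terms of the model it also moves the RNA and footprint changes. Without it the median log2 change of the 10 genes was -0.47 in RNA and 0.29 in footprints, against -0.24 and 0.61 with it. The study removed this replicate because its RNA-Seq data stood apart, but the deposited counts keep its Ribo-Seq library. Whether the study's own fit used those footprints is not clear. The fit was tested on counts simulated without replicate effects or the library split by length, so that test cannot speak to either. The samples were grouped by their titles. Deviations of same-numbered libraries from their group means correlated at -0.42 and -0.64 in RNA-Seq and at -0.16 to 0.05 in Ribo-Seq, over 7642 genes. Between differently numbered libraries they correlated at 0.42 and 0.64 in RNA-Seq and at -0.15 to 0.17 in Ribo-Seq. With 2 wild-type RNA-Seq libraries the deviations are exact opposites, so the RNA-Seq values mirror each other. The pairing, on which the within-replicate differences rest, thus comes from the methods and not from the data. Alternatives were edgeR 4.0.16, other scaling, filters, libraries and thresholds, single transcripts, and summed AttA with AttB and CecA1 with CecA2. All 10 genes were named, as were from each list the called genes (at most 4) and, where fewer than 2 were called, the 2 with the highest RNA, and the 8 genes most like the sum. The 10 genes were set by name and not by a value, but they and the lists were proposed with earlier results of these data known. Gene sequences were not used here. Intervals are 95%.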

Additional observations from a re-analysis of the deposited data

How the results depend on the processing

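None of the 10 genes was called under any of the alternatives run, and the lowest adjusted p over them was 0.61. Of 425 alternative values of the genes' log2 changes, 381 kept their direction and 44 turned it. The count of all genes called moved more. In RNA, where it was 135, it was 15 with edgeR, 22 with the filter of 10 mean counts, 41 without the replicate block, 66 with all 11 libraries, 3 with each assay alone, 4 when RNA-Seq of Polr3D EY/+ replicate 1 was omitted and 512 for single transcripts. In footprints (52) it was 10 with the filter, 18 with each assay alone, 24 without that library and 821 for single transcripts. In translation efficiency (41) it was 4 with edgeR, 1 with the filter, 7 without the replicate block, 10 with all 11 libraries, 2 without that library and 540 for single transcripts. Leaving out 1 replicate at a time gave 5 to 50, 2 to 33 and 0 to 19 genes in RNA, footprints and translation efficiency. The causes were not tested.

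Signs turned in RNA without the replicate block for AttB (-0.071) and AttD (0.0078), with all libraries for AttD (0.14), with RNA-Seq alone for AttA (0.068), and with RNA-Seq of Polr3D EY/+ replicate 1 omitted for AttA (0.0096), AttC (0.42), AttD (1.17) and Drs (0.013). In footprints they turned with all libraries for AttB (0.056) and CecA1 (-0.18), with Ribo-Seq alone for AttB (0.079), and without that RNA-Seq library for Drs (0.032). In translation efficiency they turned with all libraries for AttB (0.0092) and CecA1 (-0.22), and without that library for CecA1 (-0.13). Over the settings that leave out 1 replicate, RNA changes ran from -0.74 to 0.53 for AttA, -0.62 to 0.51 for AttB, -1.01 to 0.74 for AttC, -2.92 to 1.82 for AttD, -0.62 to 2.05 for CecA1, -1.47 to 0.020 for DptA, -1.35 to 0.12 for DptB and -0.56 to 0.081 for Drs. Footprint changes ran from -0.29 to 0.0092 for AttB, -3.29 to 1.21 for AttD and -0.23 to 0.14 for Drs. Translation efficiency ran from -1.17 to 0.44 for AttA, -0.61 to 0.63 for AttB, -0.13 to 2.34 for AttC, -1.32 to 0.024 for AttD and -2.01 to 2.88 for CecA1. Values of AttD rest on 3 or fewer counts per library. With 0.5 counts in place of 1 CPM, 17 of 50 ratios moved by more than the spread between replicates.

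Depth limits the footprint values: outside Drs no gene exceeded 39 counts in a Ribo-Seq library.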

Other observations

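Andropin (Anp), a cecropin relative made in the male genital tract, was called higher in mutant RNA (DESeq2 adjusted p = 0.029), on 26 counts in Polr3D EY/+ replicate 1 and 0 in every other RNA-Seq library. That library held 518 counts of the 6 male accessory gland and testis markers, and the other RNA-Seq libraries 0 to 4. In Ribo-Seq, Anp had 0, 11 and 12 counts in Polr3D EY/+ replicates 1, 2 and 3 and 0, 6 and 0 in the wild-type replicates. The male markers had 0, 10 and 29 counts in the mutants (0, 3.13 and 24.4 CPM). In the wild-type replicates they had 0, 58 and 0 counts (0, 51.4 and 0 CPM). Anp was at 0 in each library in which the male markers summed to 4 or fewer.

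All 8 blood cell markers had a fitted RNA change below 0 (median -0.22), as had 50.1% of all genes, with 1 at an unadjusted p under 0.05 and 0 called by DESeq2. Their summed level was 319, 321 and 303 CPM of RNA in Polr3D EY/+ flies, against 357 and 356 CPM in wild-type flies, without overlap, as in 11.6% of single protein-coding genes. Their footprint sums overlapped, at 1091, 1057 and 1148 CPM in Polr3D EY/+ flies and 1246, 1177 and 1020 CPM in wild-type flies. The 10 eggshell genes all had fitted footprint changes above 0 (median 0.18), and so had the 5 gut genes (median 0.31), beside 43.4% of all genes. The footprint sums of both lists overlapped between genotypes. Eggshell genes had 34678, 36813 and 32935 CPM in Polr3D EY/+ flies and 29455, 34594 and 29805 CPM in wild-type flies. Gut genes had 16646, 17548 and 15980 CPM in the mutants and 14889, 12629 and 17145 CPM in wild-type flies, the last from replicate 3, which is not in the fit. At an unadjusted p under 0.05 there were 3 eggshell genes and 1 gut gene, beside 2.92% of all genes, and 0 of either list were called by DESeq2. BaraA2 had 13.6 CPM of RNA and 0 footprint counts, beside 57.2 CPM of RNA and 156 CPM of footprints for its near-identical copy BaraA1. Here too the counting model divides reads that match both copies, so their separate values are uncertain. Fitted RNA changes were -4.68 (SE 4.48) for BaraA2 and 1.57 (SE 2.11) for BaraA1.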
